A study of Arabidopsis thaliana with 4 samples.

Results

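The genes examined here encode 10 proteins that copy, guard and recombine the DNA of mitochondria and chloroplasts in Arabidopsis thaliana. They were picked by locus identifier for their role, with earlier results of these data known, and were all found among the 34133 loci of each table: MSH1 (AT3G24320), OSB1 (AT1G47720), WHY1 (AT1G14410), WHY2 (AT1G71260), WHY3 (AT2G02740), RECA2 (AT2G19490), RECA3 (AT3G10140), POLIA (AT1G50840), POLIB (AT3G20540) and the TWINKLE helicase (AT1G30680). Their transcripts were compared between wild type (Col-0) and a line labelled as the dko, a double mutant of TRIC1 (locus AT3G49560) and TRIC2 (locus AT5G24650), both of which encode proteins of the mitochondrial import machinery's Tim17, Tim22 and Tim23 family. The 4 groups were wild-type and dko rosette leaves at 4 weeks of age, and wild-type and dko seedlings at 2 weeks, each stated to hold 3 replicates. All plants grew at 22 °C with a 16 h photoperiod after 2 days of stratification at 4 °C, and those used for rosettes moved to soil on day 5. The light level was given as 80 nmol quanta per square metre and second for all 4 groups. The kind of mutation in either TRIC gene, and the number of lines used, were not given in the sources used here. High and low light, which the design text names, were not analysed here.

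Plant mitochondria and chloroplasts each keep many copies of a small genome, and almost every protein that replicates or repairs them is encoded in the nucleus and imported. In plants these genomes recombine often between repeated sequences. MSH1, the RecA proteins, OSB1 and the Whirly proteins are known in Arabidopsis for limiting exchange between short repeats, and loss of some of them leads to rearranged organelle DNA. Replication rests on a pair of DNA polymerases of bacterial type, POLIA and POLIB, and on TWINKLE, which unwinds the DNA and lays primers.

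The authors deposited 1 table per tissue with 1 FPKM per locus and group, pooled over the replicates. FPKM counts sequenced fragments for each kilobase of a transcript and is scaled by library size. No replicate values were at hand, so no standard deviation can be given and overlap between replicates cannot be shown. The error of each comparison enters through the q-value that Cuffdiff, the authors' testing tool, computed over all tested loci, with 0.05 as the threshold. Nothing in the labels says whether the replicates came from separate plants, so these q-values measure a spread that may be technical. In such bulk samples, fewer cells of a type and less RNA per cell cannot be told apart. The sequencing depth is unknown.

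In the authors' deposited tables TRIC1 was at 30.7% of the wild-type FPKM in dko rosettes (q = 0.000899) and at 47.9% in dko seedlings (q = 0.000768). TRIC2 was at 0.394% in rosettes with q = 0.146, which misses the threshold, and at 2.07% in seedlings (q = 0.000768), by the authors' deposited tables. Some TRIC1 transcript was thus still listed in the dko. Of 7 root markers, 3 were listed at 0 in wild-type rosettes and the highest was SHR at 2.70 FPKM, in the authors' deposited table. In wild-type seedlings none was at 0, and values ran from 0.0673 to 5.26 FPKM (SHR), in the authors' deposited table. Of the 7 markers, 2 reached 1 FPKM in a rosette group and 3 in a seedling group. These low values do not show how much root the seedling samples held. All 5 leaf markers had 1260 FPKM or more in wild-type rosettes and 1311 FPKM or more in wild-type seedlings (authors' deposited tables). In the dko of each tissue 4 of the 5 fell, beside 8.94% of all tested loci in rosettes and 8.14% in seedlings.

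WHY2, WHY3 and TWINKLE rose in the dko in both tissues, by 1.57-fold to 2.50-fold. WHY1, RECA2 and POLIB passed the threshold in seedlings, with rises of 1.40-fold to 1.45-fold, and had q-values above 0.25 in rosettes. MSH1, OSB1, RECA3 and POLIA did not pass in either tissue. None of the 10 genes fell past the threshold. All 10 were tested by Cuffdiff in both tissues, and each had 1 FPKM or more in at least 1 group of each table. In rosettes 3 of 10 were called higher, beside 7.81% of all tested loci, and in seedlings 6 of 10, beside 8.4%. Both tissues together called 3 of the 10 genes higher, beside 4.05% of the 17890 loci tested in both. The share of all tested loci called lower was 8.94% in rosettes, 8.14% in seedlings and 2.56% in both. The median log2 ratio of dko over wild type across the 10 genes was 0.46 in rosettes and 0.51 in seedlings, beside 0.01 over all tested loci in each tissue.

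**Figure D1:**
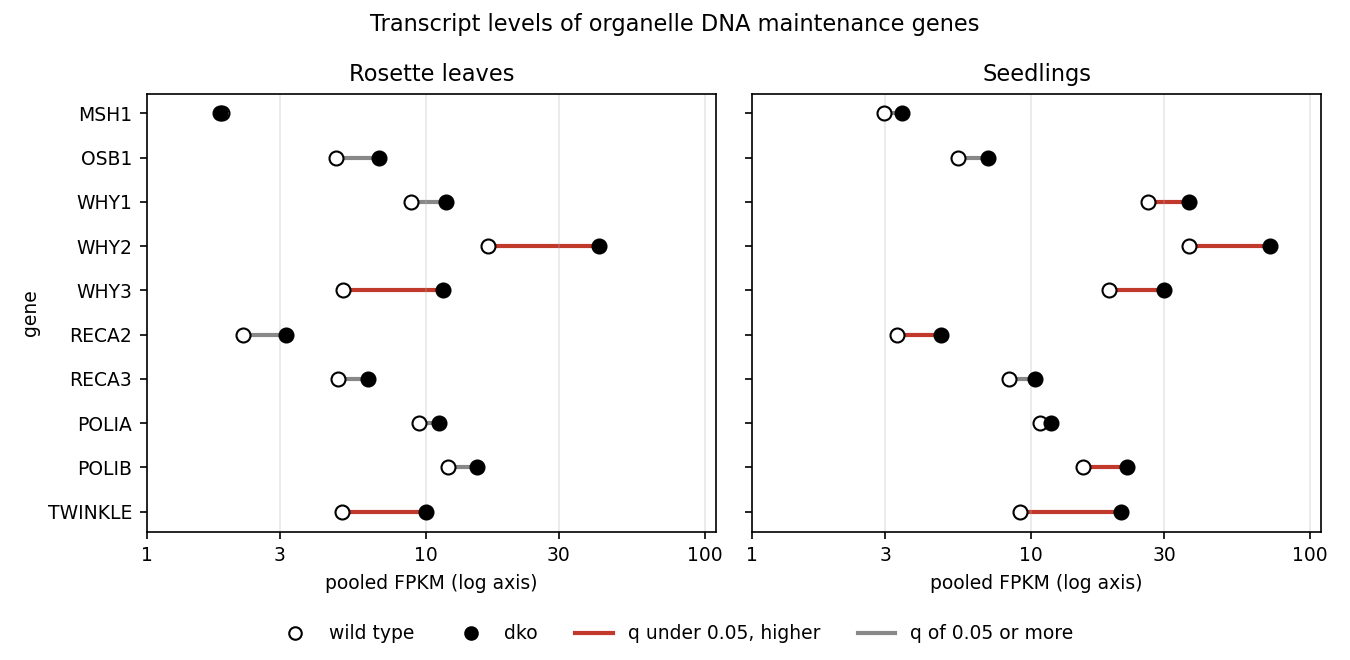
Pooled FPKM of the 10 genes (log axis) in wild type (open circles) and dko (filled circles), rosettes on the left and seedlings on the right. Lines in red join values that differ past q 0.05. WHY2 has the highest value in every group and MSH1 the lowest, and WHY2, WHY3 and TWINKLE have red lines in both panels.

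The Whirly proteins bind single-stranded DNA and coat it during repair. WHY2 acts in mitochondria, and WHY1 and WHY3 act in plastids. WHY2 went from 16.7 FPKM in wild-type rosettes to 41.8 FPKM in dko rosettes in the authors' deposited table, and this 2.50-fold rise is 1.32 on the log2 scale (q = 0.000899). Its seedling level rose 1.95-fold, from 36.9 to 72.2 FPKM or by 0.97 on the log2 scale, per the authors' deposited table (q = 0.000768). Few loci rose as much: 2.89% of tested loci in rosettes and 2.17% in seedlings had a larger log2 ratio than WHY2.

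WHY3 had 5.06 FPKM in wild-type and 11.5 FPKM in dko rosettes in the authors' deposited table, a 2.28-fold rise or 1.19 on the log2 scale (q = 0.000899). For seedlings the authors' deposited table lists WHY3 at 19.0 FPKM without the mutations and at 29.99 FPKM with them, which is 1.57-fold or 0.65 on the log2 scale (q = 0.000768). WHY1, the closest relative of WHY3, rose in seedlings by 0.49 on the log2 scale (26.3 to 36.9 FPKM, q = 0.00408, authors' deposited table). Its rosette values were 8.87 and 11.8 FPKM in the authors' deposited table, and the difference of 0.41 on the log2 scale had q = 0.278. In wild-type rosettes the FPKM of WHY1 was 1.75 times that of WHY3, and in dko rosettes 1.02 times. For seedlings that ratio of levels was 1.38 in wild type and 1.23 in the dko.

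The coding sequences of WHY1 and WHY3 were identical at 83.7% of 777 aligned bases, and the longest run of bases shared by their transcripts was 29 bases. WHY2 shared 59.5% of aligned bases with WHY1 and 61.5% with WHY3. The authors' way of assigning reads with several matches was not given in the sources used here. WHY2, WHY3 and RECA3 are listed in the tables under a span they share with other loci. The locus on the span of WHY2, AT1G71250, had 0.202 and 0.302 FPKM in wild-type and dko rosettes and was not tested in the authors' deposited table. Beside WHY3, AT2G02750 had 0.850 and 0.945 FPKM in rosettes and 0.989 and 1.79 FPKM in seedlings per the authors' deposited tables, with q-values of 0.904 and 0.175. AT2G02741, on the same span, was not tested and was listed at 0 in all groups except dko seedlings, where the authors' deposited table gives 2.59 FPKM. The neighbours were thus listed far below the Whirly gene whose span they share.

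OSB1, a plant-specific protein that binds single-stranded DNA in mitochondria, did not pass in either tissue. Its 4.78 and 6.80 FPKM in wild-type and dko rosettes differ by 0.51 on the log2 scale (q = 0.244, authors' deposited table). The seedling values of 5.47 and 6.99 FPKM differ by 0.36 (q = 0.251, authors' deposited table). Its ratio in rosettes was close to that of RECA2, and neither gene passed there.

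MSH1, a homologue of the bacterial mismatch protein MutS that suppresses recombination between short repeats in both organelles, had the lowest level of the 10 genes in every group. Its FPKM was 1.86 in wild-type and 1.83 in dko rosettes in the authors' deposited table, a difference of -0.02 on the log2 scale (q = 0.976). The corresponding seedling values were 2.97 and 3.46 FPKM, with a difference of 0.22 (q = 0.398, authors' deposited table). MSH1 was the only one of the 10 with a ratio below 0 in either tissue, and 53.0% of tested loci in rosettes had a larger log2 ratio.

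RECA2 and RECA3 are relatives of bacterial RecA, which pairs a single strand with a matching duplex. RECA3 is mitochondrial, and RECA2 is found in mitochondria and plastids. RECA2 rose in seedlings by 0.53 on the log2 scale, with 3.299 FPKM in wild type against 4.76 in the dko (q = 0.0443, authors' deposited table), the q-value closest to the threshold among the genes that passed. In rosettes its values were 2.22 and 3.16 FPKM in the authors' deposited table, with a log2 ratio of about the same size, 0.51, and q = 0.259. RECA3 had 4.85 and 6.21 FPKM in wild-type and dko rosettes, a difference of 0.36 on the log2 scale (q = 0.424, authors' deposited table). Its seedling values of 8.34 and 10.4 FPKM differ by 0.32 (q = 0.165, authors' deposited table). AT3G10150, which shares the listed span of RECA3, had lower values in the dko of both tissues without passing, by the authors' deposited tables. It had 2.60 and 1.63 FPKM in wild-type and dko rosettes, and 1.105 and 0.623 FPKM in seedlings. In rosettes this neighbour was thus not far below RECA3. Its log2 ratios were -0.68 (q = 0.460) and -0.83 (q = 0.549) in the authors' deposited tables. RECA3 and this neighbour lie on opposite strands, and the use of strand in counting was not given in the sources used here.

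TWINKLE joins a primase and a helicase in 1 protein and is related to the replication enzyme of phage T7. Its transcript rose from 5.01 FPKM in wild-type to 10.01 FPKM in dko rosettes in the authors' deposited table, by 0.998 on the log2 scale (q = 0.000899). Seedlings had 9.17 FPKM in wild type against 20.9 in the dko, which is 2.28-fold or 1.19 on the log2 scale (q = 0.000768, authors' deposited table). This was the largest ratio of the 10 genes in seedlings, and 1.17% of tested loci there had a larger one. TWINKY (AT1G30660), a nearby relative that holds the primase part, was listed at 0.0317 and 0.278 FPKM in wild-type and dko rosettes without a test. In seedlings the authors' deposited table gives it 0.414 and 0.774 FPKM, with q = 0.258.

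The DNA polymerases moved less. POLIB rose in seedlings by 0.53 on the log2 scale, with 15.3 FPKM in wild type against 22.1 in the dko (q = 0.000768, authors' deposited table). Its rosette values of 12.1 and 15.3 FPKM differ by 0.34, with q = 0.305 in the authors' deposited table. POLIA had 9.43 and 11.1 FPKM in rosettes, a difference of 0.24 on the log2 scale (q = 0.518, authors' deposited table). In seedlings it had 10.8 and 11.8 FPKM, a difference of 0.13 (q = 0.582, authors' deposited table). Their coding sequences were identical at 80.1% of 3051 aligned bases, with a longest shared run of 41 bases between the transcripts. The FPKM of POLIB over that of POLIA was 1.28 in wild-type and 1.37 in dko rosettes, and 1.42 and 1.87 in seedlings. TWINKLE stood at 0.415 of the POLIB level in wild-type rosettes and at 0.655 in the dko, and in seedlings at 0.599 and 0.946. No test of these ratios of levels could be made from pooled values.

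By level, the order in wild-type rosettes from high to low was WHY2, POLIB, POLIA, WHY1, WHY3, TWINKLE, RECA3, OSB1, RECA2 and MSH1. WHY3, TWINKLE, RECA3 and OSB1 lay between 4.78 and 5.06 FPKM in the authors' deposited table, and without replicate values it cannot be said which neighbours in this order differ. In wild-type seedlings the order was WHY2, WHY1, WHY3, POLIB, POLIA, TWINKLE, RECA3, OSB1, RECA2 and MSH1, so that all 3 Whirly genes stood above the polymerases. In dko seedlings TWINKLE was above POLIA, the sole change from wild type in that order. The tables were normalised separately, so levels are not compared between tissues. Compared with nuclear loci tested in rosettes, wild-type WHY2 had a higher FPKM than 68.2% of them and MSH1 than 14.8%.

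**Figure D2:**
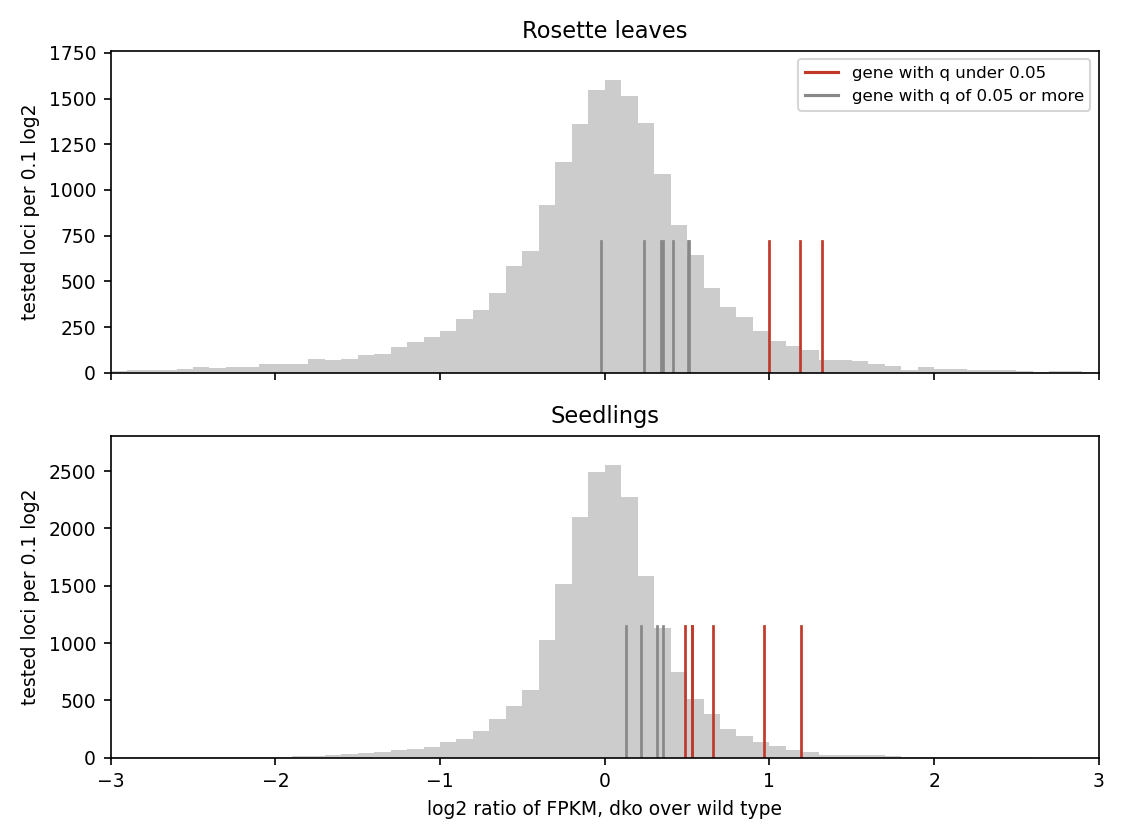
Numbers of tested loci per 0.1 log2 of the ratio of dko over wild type (grey bars), rosettes above and seedlings below, with a vertical line for each of the 10 genes, red where q is under 0.05. The median of all tested loci is 0.01 in each tissue. All lines except that of MSH1 in rosettes lie above 0.

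The quartiles of the log2 ratio over tested loci were -0.33 and 0.33 in rosettes and -0.20 and 0.22 in seedlings, and like ratios carried unlike q-values in the 2 tissues. RECA2 had log2 ratios of 0.51 and 0.53 and passed in seedlings alone. WHY1, with 0.41 and 0.49, also passed in seedlings alone. So did POLIB, whose log2 ratio was larger there, at 0.53 against 0.34 in rosettes. The log2 ratio was larger in rosettes for 5 of the 10 genes and larger in seedlings for the other 5. A difference in response between tissues was not tested, as no values per replicate were at hand.

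Other nuclear genes for organelle DNA maintenance were taken from a list of 22. In rosettes 8 of 20 tested rose, beside 7.81% of all tested loci, and none fell, with a median log2 ratio of 0.47. In seedlings 5 of 22 rose, beside 8.4%, and none fell, with a median of 0.38. Requiring a change of at least 2-fold as well left 3 genes in rosettes and 1 in seedlings. The 5 that rose in both tissues were the gyrase genes GYRA, GYRB1 and GYRB2, TOPI (AT4G31210) and RNH1C (AT1G24090). Of all loci tested in both tissues, 4.05% were called higher in both.

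DNA gyrase relaxes supercoils ahead of the replication machinery, and TOPI is an organellar topoisomerase that cuts 1 strand. All 4 topoisomerase genes rose in both tissues. GYRB2 had 3.95 and 10.4 FPKM in wild-type and dko rosettes, a rise of 1.40 on the log2 scale (q = 0.000899, authors' deposited table). In seedlings its 9.43 and 18.3 FPKM correspond to a rise of 0.95 (q = 0.000768, authors' deposited table). TOPI had 5.88 and 14.2 FPKM in rosettes, a rise of 1.27 (q = 0.000899), and 13.6 and 25.1 FPKM in seedlings, a rise of 0.88 (q = 0.000768), per the authors' deposited tables. GYRA, the subunit that cuts DNA, rose by 0.84 in rosettes (q = 0.00291) and by 0.81 in seedlings (q = 0.000768) on the log2 scale, per the authors' deposited tables. GYRB1 rose by 0.63 (q = 0.0248) and 0.58 (q = 0.000768), per the authors' deposited tables.

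RNH1C, the plastid RNase H1 that removes RNA paired with DNA, had the largest ratio among the tested genes of the wider list. Its rosette level rose 7.85-fold, with 0.355 FPKM in wild type against 2.79 in the dko (q = 0.000899, authors' deposited table). Its seedling level rose 3.11-fold, with 2.47 FPKM in wild type against 7.69 in the dko (q = 0.000768, authors' deposited table). RNH1B, the mitochondrial RNase H1, did not pass, with log2 ratios per the authors' deposited tables of 0.14 (q = 0.839) and -0.06 (q = 0.910). The plastid and mitochondrial copies of this enzyme were thus listed with different calls, and the difference between them was not tested.

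Of the other single-strand binding proteins, OSB2, OSB3 and SSB2 rose in rosettes, with log2 ratios of 0.85 (q = 0.00291), 0.60 (q = 0.0367) and 0.85 (q = 0.0337) in the authors' deposited table. Their log2 ratios in seedlings were 0.32, 0.32 and 0.38 in the authors' deposited table, and the smallest q was 0.0661. OSB4 and SSB1 did not pass in either tissue, with log2 ratios from 0.37 to 0.69. The RAD52-like genes ODB1 and ODB2 did not pass, with log2 ratios from -0.02 to 0.20. None of RECA1, RADA and RECG1, which act in strand exchange and branch migration, passed in either tissue. RADA had the lowest log2 ratio among the tested genes of the wider list in rosettes, -0.61 with q = 0.106 in the authors' deposited table. UNG, a DNA repair glycosylase gene, was lower still at 0.642 and 0.282 FPKM in wild-type and dko rosettes but was not tested there, and did not pass in seedlings (log2 ratio 0.45, q = 0.519, authors' deposited table). LIG1, OEX1, OEX2 and DPD1, a ligase and 3 nucleases, also did not pass in either tissue.

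**Figure D3:**
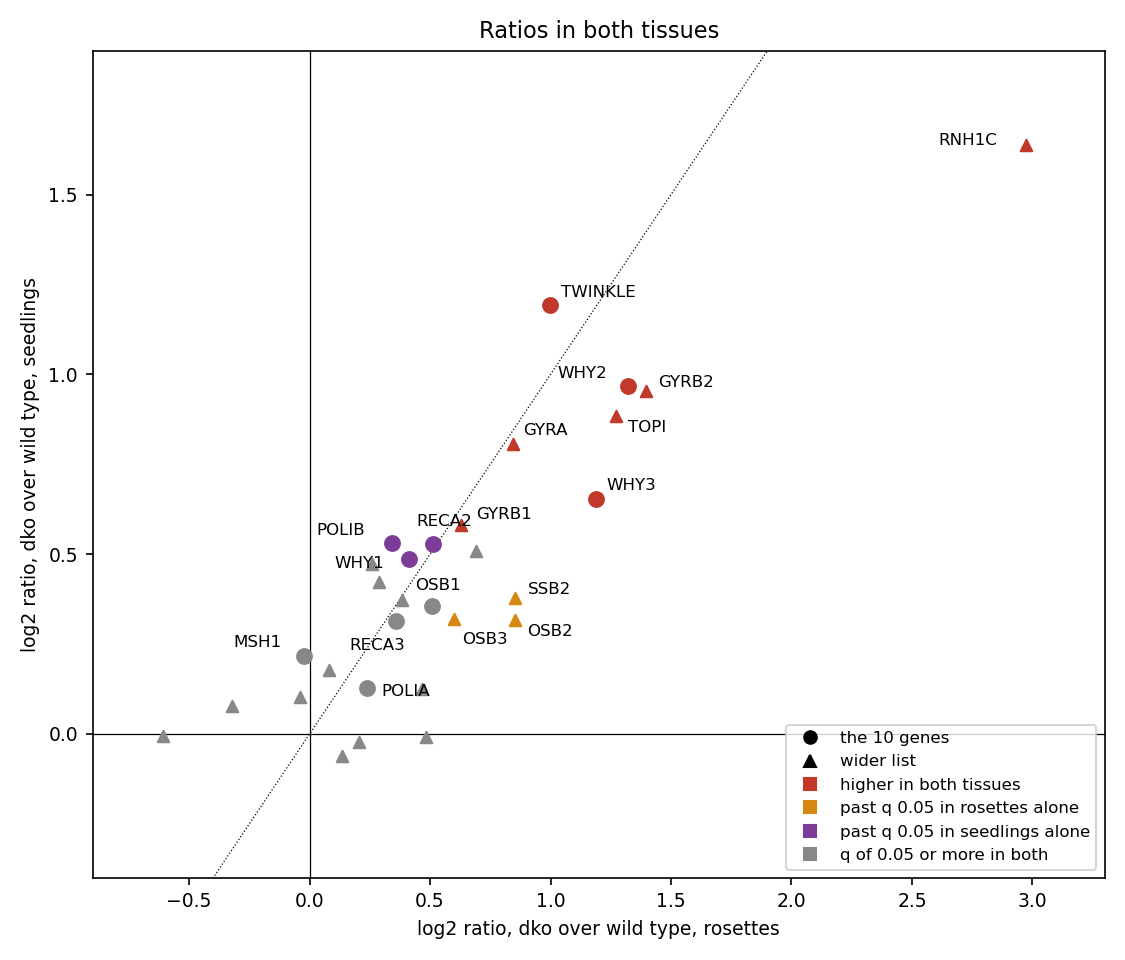
Log2 ratio of dko over wild type in rosettes (x axis) and seedlings (y axis) for the 10 genes (circles) and the genes of the wider list tested in both tissues (triangles). Colours give the tissue in which q was under 0.05, and the dotted line marks equal ratios. TWINKLE lies at 0.998 and 1.19, WHY2 at 1.32 and 0.97, WHY3 at 1.19 and 0.65, and RNH1C far to the right at 2.97 and 1.64.

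Genes of nuclear DNA replication and mitosis were set beside these results, because organelle DNA is copied mainly in dividing tissue. In rosettes 7 of 11 such genes fell, beside 8.94% of all tested loci, and 2 rose, beside 7.81%. Their median log2 ratio was -1.27. CYCB1;2, CDKB2;1, MCM2 and KNOLLE had log2 ratios of -2.48 (q = 0.0383), -2.08 (q = 0.0333), -1.99 (q = 0.000899) and -1.92 (q = 0.0294) in the authors' deposited rosette table. In seedlings none of the 11 fell, beside 8.14% of all tested loci, and 2 rose, beside 8.4%, with a median of 0.06. Both genes that rose in each tissue, RNR1 and TSO2, encode subunits of ribonucleotide reductase, which makes the building blocks of DNA for the nucleus and the organelles alike. RNR1 had log2 ratios of 0.75 (q = 0.00692) and 0.39 (q = 0.0186), and TSO2 of 0.91 (q = 0.00455) and 0.51 (q = 0.000768), in the authors' deposited tables. The summed FPKM of all 11 genes was 29.9 in wild-type and 31.2 in dko rosettes, and 204 and 242 in seedlings. Without RNR1 and TSO2, the sum was 16.9 in wild-type and 7.76 in dko rosettes, and 116 and 119 in seedlings. CYCB1;2, CDKB2;1, MCM2 and KNOLLE lay between 0.763 and 1.72 FPKM in wild-type rosettes (authors' deposited table). They lay between 0.137 and 0.433 FPKM in dko rosettes, so their ratios rest on low values. WHY2, WHY3 and TWINKLE rose in both tissues, while 7 of the 11 genes fell in rosettes and none in seedlings. The part of cell division in these results was not tested.

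Of 7 genes of the nuclear response to DNA damage, 4 of 6 tested rose in rosettes, beside 7.81% of all tested loci. In seedlings 5 of 6 tested rose, beside 8.4%, and none fell past the threshold in either tissue. PARP2 (AT4G02390), a poly(ADP-ribose) polymerase, had 0.825 and 5.98 FPKM in wild-type and dko rosettes (q = 0.000899), and 5.10 and 12.04 FPKM in seedlings (q = 0.000768), per the authors' deposited tables. GMI1, a gene named for its induction by gamma irradiation, rose by 2.84 (q = 0.000899) and 1.98 (q = 0.000768) on the log2 scale, per the authors' deposited tables. CYCB1;1, a mitotic cyclin gene that also rises after DNA damage, rose by 3.16 (q = 0.00455) and 1.05 (q = 0.000768), per the authors' deposited tables. PARP1 (AT2G31320) rose in both tissues as well, with log2 ratios of 0.96 (q = 0.0149) and 0.68 (q = 0.000768), and BRCA1 in seedlings with 0.62 (q = 0.000768), in the authors' deposited tables. SMR7 had a log2 ratio of 5.73 in rosettes, the largest of the list, but with q = 0.405 in the authors' deposited table it was not called. In wild-type rosettes CYCB1;1, SMR7, GMI1, PARP2 and PARP1 lay between 0.196 and 0.908 FPKM in the authors' deposited table. Their rosette ratios thus rest on low wild-type values. SMR5 had a log2 ratio of -1.49 in rosettes, the lowest of the list, with 3.34 and 1.19 FPKM in wild type and dko (q = 0.706, authors' deposited table), and was not tested in seedlings.

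**Figure D4:**
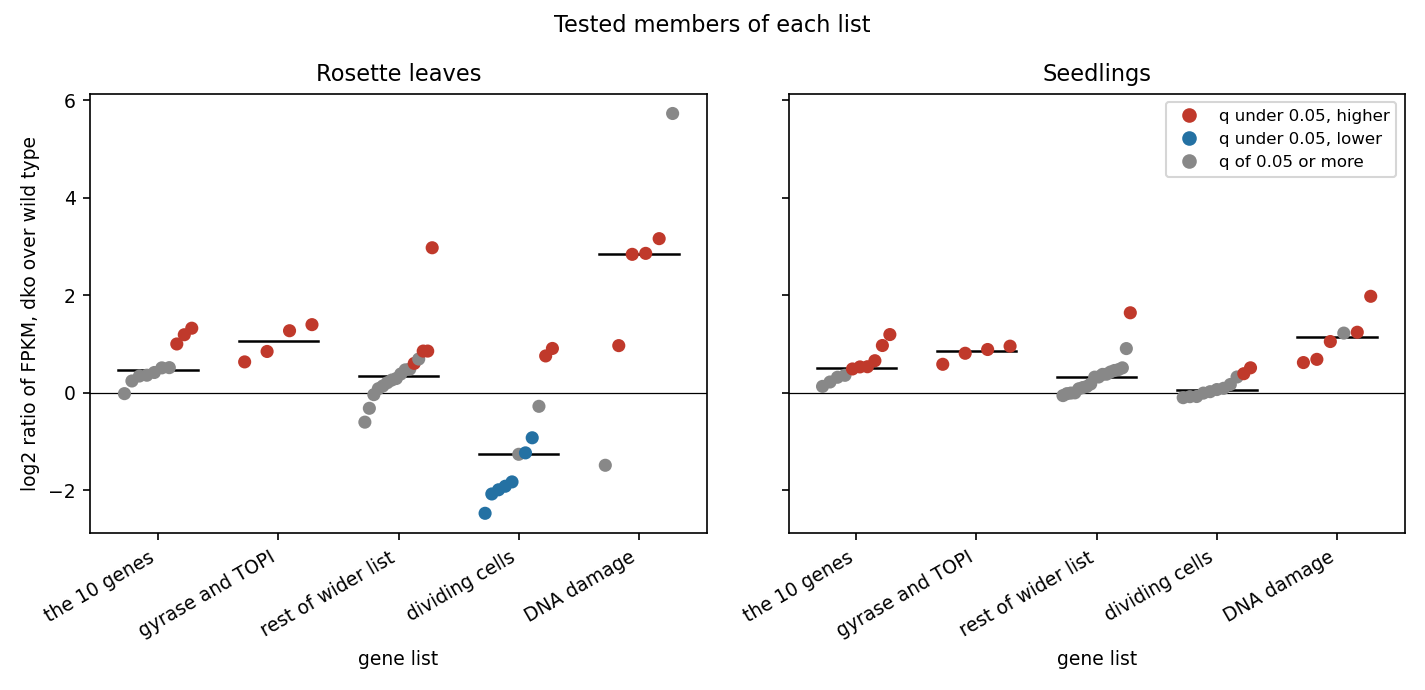
Log2 ratio of dko over wild type (y axis) of each tested gene in 5 lists (x axis), rosettes on the left and seedlings on the right, with a black bar at each list's median. Points are red or blue where q is under 0.05. The median of the dividing-cell list is -1.27 in rosettes and 0.06 in seedlings, while that of the 10 genes is 0.46 and 0.51.

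As WHY2, WHY3 and TWINKLE moved in the same direction in both tissues, the bases before their annotated starts were read from the TAIR10.1 assembly of RefSeq and searched on both strands for 5 motifs. Those of TWINKLE, WHY2 and WHY3 are shown because these genes rose in both tissues, and that of OSB1 because it also holds a pair of site II elements, in another arrangement, and was not called. Each runs 5′ to 3′ along the gene's own strand up to the base before the start, with motif matches in capitals: chr1:10881229-10881478 (plus strand) for TWINKLE, chr1:26863455-26863586 (minus strand) for WHY2, chr2:769084-769333 (plus strand) for WHY3 and chr1:17562935-17563184 (minus strand) for OSB1. For WHY2 only the 132 bases outside the neighbouring gene AT1G71270 are shown.
TWINKLE: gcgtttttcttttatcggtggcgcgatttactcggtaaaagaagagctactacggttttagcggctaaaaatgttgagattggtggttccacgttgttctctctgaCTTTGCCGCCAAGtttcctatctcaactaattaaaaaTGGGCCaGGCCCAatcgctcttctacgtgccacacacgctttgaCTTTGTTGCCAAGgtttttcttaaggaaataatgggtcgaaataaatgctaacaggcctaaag
WHY2: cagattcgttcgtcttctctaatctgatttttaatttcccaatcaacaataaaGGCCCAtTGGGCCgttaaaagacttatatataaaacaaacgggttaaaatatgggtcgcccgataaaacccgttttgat
WHY3: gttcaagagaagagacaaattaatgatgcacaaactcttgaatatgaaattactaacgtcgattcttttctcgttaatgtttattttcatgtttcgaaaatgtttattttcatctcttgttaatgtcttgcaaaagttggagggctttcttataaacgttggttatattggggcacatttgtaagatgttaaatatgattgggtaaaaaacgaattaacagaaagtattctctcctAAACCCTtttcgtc
OSB1: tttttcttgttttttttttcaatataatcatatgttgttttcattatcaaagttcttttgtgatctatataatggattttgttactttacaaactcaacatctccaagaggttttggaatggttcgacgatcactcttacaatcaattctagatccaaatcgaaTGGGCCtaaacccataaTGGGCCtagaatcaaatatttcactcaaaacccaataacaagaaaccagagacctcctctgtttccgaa

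Site II elements, TGGGCC or TGGGCT, are bound by TCP factors and are common before nuclear genes of mitochondrial proteins. TWINKLE and WHY2 each hold a pair of them on opposite strands with 1 base between, at -107 to -95 before TWINKLE and at -79 to -67 before WHY2. OSB1 holds a pair on the same strand, at -86 and -69. At least 1 site II element was found in the windows of these 3 genes of 10, beside 19.2% of the 27443 nuclear protein-coding genes. Among the 17503 windows of genes tested in rosettes the share was 23.3%. A count of 2 or more matches was reached in 12.0% of all windows, whatever their spacing or strand. Matches on opposite strands that share bases are not set apart in this count. It is thus no background for the separate pairs of TWINKLE, WHY2 and OSB1. Of the wider list 11 of 22 windows held a site II element. They were those of GYRB1, GYRB2, TOPI and RNH1C, which rose in both tissues, of OSB2 and OSB3, which rose in rosettes, and of ODB1, TWINKY, OEX2, RNH1B and DPD1, which passed in neither. The window of GYRA, which rose in both tissues, and that of SSB2, which rose in rosettes, held none. Those of RECA1, OSB4, ODB2, SSB1, RADA, RECG1, LIG1, OEX1 and UNG, which passed in neither, also held none. A link between the element and the calls was not tested.

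The SOG1 element, CTTNNNNNNNAAG, is bound by a factor that governs the DNA damage response of plants. It reads the same on both strands. TWINKLE holds 2 matches, at -144 to -132 and at -63 to -51, and no other window of the 10 genes holds any. Of the wider list 2 of 22 windows held a match, those of TWINKY and RNH1B, which passed in neither tissue. At least 1 match was present in 9.71% of all windows and 2 or more in 0.609%, a count that was taken after the TWINKLE matches were seen. A telo-box, AAACCCT, lies at -14 to -8 before WHY3, and 7.33% of all windows hold it. The E2F elements TTCCCGC or TTGGCGC (1.92% of windows) and the mitochondrial dysfunction motif CTTGNNNNNCA (7.97% of windows) had no match before any of the 10 genes. In the wider list an E2F element lay before OSB3, the mitochondrial dysfunction motif before GYRB1 and TWINKY, and the telo-box before OSB4 and OEX1. No motif match was found before MSH1, WHY1, RECA2, RECA3, POLIA or POLIB. For RECA2 only the 18 bases next to the start lie outside the neighbouring gene AT2G19480. The bases next to the start of POLIB lie inside AT3G20530. Little or no sequence between genes was thus searched next to these starts. A match of letters in this window does not show binding.

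**Figure D5:**
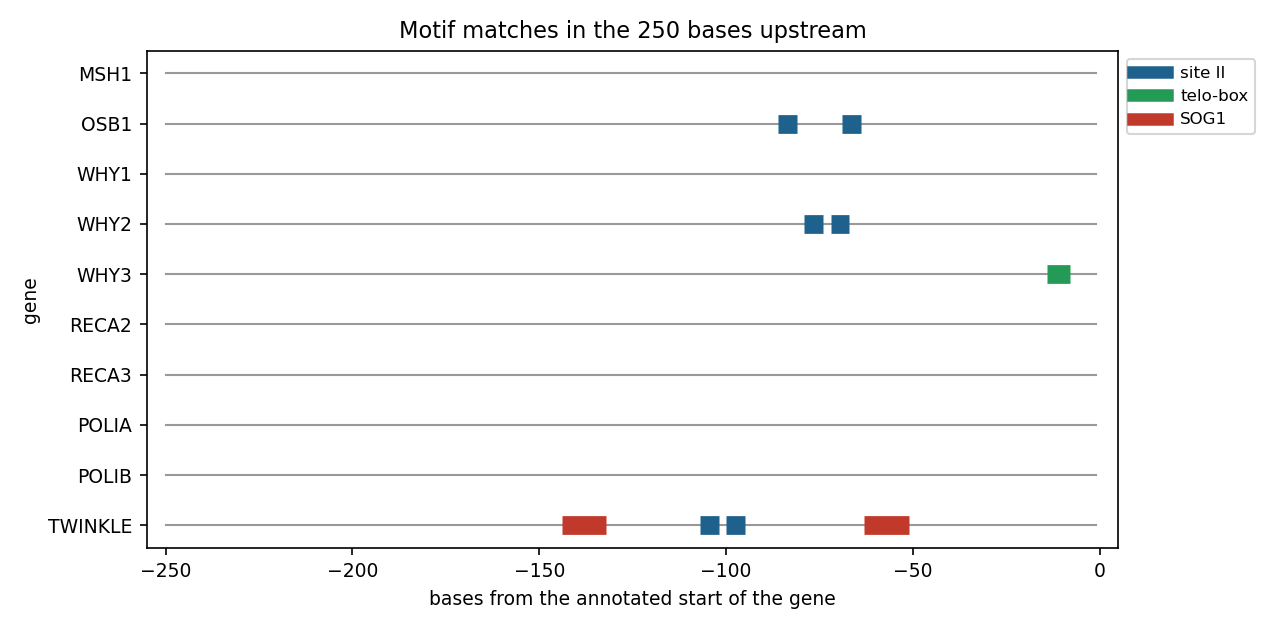
Positions of motif matches in the 250 bases upstream of each of the 10 genes (x axis, bases from the annotated start; coloured blocks, matches on either strand). TWINKLE and WHY2 have close site II pairs, OSB1 a wider pair, and TWINKLE alone has SOG1 matches.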

How the data were processed

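RNA was measured in 4 groups. Per the labels' protocols, libraries were stranded and made from total RNA depleted of ribosomal RNA. Per the submitters' processing notes, Bowtie2, TopHat2, Cufflinks and Cuffdiff (each 2.2.0) were used with TAIR10. The annotation, the scaling setting and strand use were not given in the sources used here. As for units, the authors deposited FPKM with a single pooled value for each group. The log2 ratio in the authors' deposited tables sets the dko against wild type, and a recomputation differed by 1.39e-05 at most. The p-value and q-value that the authors deposited come from Cuffdiff, with a smallest p-value of 5e-05. A Benjamini-Hochberg adjustment over tested loci (18338 in rosettes, 19747 in seedlings) gave the same q-value within 5.24e-07. The test score deposited by the authors was not used.

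The q-value was used as it stands, since neither counts nor values per replicate were at hand. The adjustment was checked on simulated p-values. The 10 genes and all lists were chosen with earlier results of these data known. Lists are described by counts and medians. Genes named are the 10, both targeted genes, members of the wider list past the threshold or discussed as relatives, up to 4 per marker list and tissue with the largest ratios, and loci sharing a span. All other genes of the wider list are named too, and SHR, SMR5, SMR7, BRCA1 and RADA were singled out after their values were seen. A further gene of the DNA damage list is not reported here. No likeness of pattern was ranked, as each locus has 2 ratios.

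Upstream windows of 250 bases and coding sequences came from RefSeq TAIR10.1, aligned with Biopython 1.88 and read with pandas 2.3.3. Of 27983 nuclear loci found in both, all lay on the same chromosome, and 8302 starts were equal after adding 1 to the tables' starts, against 134 without. Starts in the tables and in RefSeq can differ, and windows follow RefSeq. TWINKLE, for example, starts at 10881479 in RefSeq and at 10881597 in the tables. Motif positions and window contents would thus differ if counted from the tables' starts. Other columns of per-sample values numbered 0.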

Additional observations from a re-analysis of the deposited data

How the results depend on the processing

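Without replicate values no replicate could be left out. No paired analysis was possible because each table holds 1 pooled value per group. At q thresholds of 0.01 and 0.1, the 10 genes gave 3 and 3 calls in rosettes and 5 and 6 in seedlings, and 3 and 6 also with loci under 1 FPKM left out or q recomputed over nuclear loci. Requiring a 2-fold change as well left 2 calls in rosettes, WHY2 and WHY3, and 1 in seedlings, TWINKLE. No gene of the 10 was then called in both tissues. For the wider list, a 2-fold minimum left 3 calls in rosettes and 1 in seedlings, q 0.01 left 5 in rosettes, and q 0.1 gave 8 in seedlings. Leaving out WHY2, WHY3 and RECA3, which share a listed span, an alternative chosen after seeing the data, left 1 call in rosettes and 4 in seedlings. Fewer genes are tested in that setting. Under pseudocounts of 1 and 0.1 and 2 recentrings, the median lay between 0.37 and 0.45 in rosettes and between 0.45 and 0.50 in seedlings. The signs of the ratios could not change in these settings. A pseudocount added to both groups keeps the sign, and the recentrings shifted ratios by -0.0151 at most, less than the size of any ratio. The largest shift of a log2 ratio of the 10 genes was -0.14, with a pseudocount of 1. Depth is unknown, so what it limits cannot be stated.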
